A study of Mus musculus with 9 samples.

Results

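Genes of glucose and lactate transport, glycolysis, lactate dehydrogenase, pyruvate entry into mitochondria and the tricarboxylic acid (TCA) cycle were followed in cells of the embryonic mouse cortex in which a circular RNA or the linear mRNA of the same gene was knocked down. The members were chosen by name, as 44 gene symbols of these pathways, but with earlier results of these data known. They match 45 rows of the 53379 in the count table, since Aldoa has a second row (ENSMUSG00000114515.2), a short transcribed unit beside the main gene. All 45 passed the filter on low counts, with 35 to 40457 counts per library, so no member was lost to it.

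Each group held 3 libraries. The first received a mix of 3 short hairpin RNAs (shRNAs) against circSlc45a4, and the second a mix of 2 shRNAs to the linear transcript of Slc45a4. The last received 1 scrambled sequence (scramble). All embryos were C57BL/6, were electroporated in utero at E13.5 (embryonic day) and were collected at E15.5, 48 hours later, and the GFP+ cells were sorted from the cortex, so only cells that took up the electroporated DNA, and their offspring, were read. The libraries are called biological replicates. How many embryos each one pooled is not given in the sources used here. PolyA selection does not retain a circular RNA, so circSlc45a4 itself was not read. In RNA from a sorted mixture of progenitors and neurons, fewer cells of a type and less RNA per cell cannot be told apart.

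Glycolysis splits glucose into pyruvate. Lactate dehydrogenase turns pyruvate into lactate, and the pyruvate dehydrogenase complex sends it into the TCA cycle, which feeds the respiratory chain. In the developing cortex, neural progenitors are known for a more glycolytic metabolism, and their neuronal offspring shift towards oxidative metabolism. Several steps are run by isoenzymes from separate genes, which differ in kinetics and regulation between tissues.

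Slc45a4, the targeted locus, had 25.4, 25.3 and 24.7 CPM in the circSlc45a4 knockdown, 13.2, 18.5 and 17.4 CPM in the Slc45a4 mRNA knockdown, and 31.4, 33.6 and 33.9 CPM in scramble. It was lower in every library of both knockdowns than in any scramble library. Total counts ranged from 21073174 to 45469298 per library. Xist, the RNA that silences an X chromosome in female cells, had 635, 264 and 428 CPM in the circSlc45a4 knockdown, 1549, 636 and 0.194 CPM in the Slc45a4 mRNA knockdown, and 0.239, 0.0648 and 0.0617 CPM in scramble. Xist was thus high in 5 of the 6 knockdown libraries, and 1 knockdown library, Slc45a4 mRNA knockdown replicate 3, had it near 0 as scramble did. Ddx3y, a gene of the Y chromosome, had 20.001, 37.1 and 28.5 CPM in the circSlc45a4 knockdown, 0.00, 21.9 and 39.1 CPM in the Slc45a4 mRNA knockdown, and 41.5, 38.02 and 28.3 CPM in scramble. Slc45a4 mRNA knockdown replicate 1 thus held 0 counts of it and the most Xist. The make-up of the libraries by sex differed and moved in part with the groups, so the part of each cannot be told apart, also for the X-linked members Pdk3, Pdha1 and Pgk1. Markers of the labelled tissue were abundant, with 12 projection neuron genes summing to 5774 to 6055 CPM in the circSlc45a4 knockdown, 5272 to 5859 CPM in the Slc45a4 mRNA knockdown and 6148 to 7225 CPM in scramble. Of these 12, 1 rose and 5 fell in the circSlc45a4 knockdown, and 1 rose and 4 fell in the Slc45a4 mRNA knockdown (1 and 2, and 0 and 1, with the Xist level as a covariate). The summed level of 8 basal progenitor markers was 1369 to 1641 CPM in the circSlc45a4 knockdown, 1646 to 1709 CPM in the Slc45a4 mRNA knockdown and 1758 to 1902 CPM in scramble, with 0 higher and 4 lower in the circSlc45a4 knockdown and 0 higher and 3 lower in the Slc45a4 mRNA knockdown (1 and 2 lower with the covariate). The summed level of 14 apical progenitor markers was 1760 to 1944 CPM in the circSlc45a4 knockdown, 1139 to 1425 CPM in the Slc45a4 mRNA knockdown and 1042 to 1333 CPM in scramble, with 11 higher and 0 lower in the circSlc45a4 knockdown and 5 higher and 0 lower in the Slc45a4 mRNA knockdown (6 and 3 higher with the Xist level as a covariate). Among 12 S phase genes, 0 rose and 8 fell in the circSlc45a4 knockdown (summed level 717 to 875 CPM in the circSlc45a4 knockdown, 1213 to 1453 CPM in the Slc45a4 mRNA knockdown and 873 to 1259 CPM in scramble), and 2 rose and 0 fell in the Slc45a4 mRNA knockdown. With the covariate 1 fell in the circSlc45a4 knockdown and 0 were called in the Slc45a4 mRNA knockdown. Beside these marker counts, 27.1% and 18.0% of all genes tested were called in the circSlc45a4 and Slc45a4 mRNA knockdowns against scramble. With the covariate these were 1199 and 738 of 17760 genes. The S phase count in the Slc45a4 mRNA knockdown lies near that share. The part of these cell type and cell cycle genes in the results that follow was not tested.

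Lactate dehydrogenase A, the pyruvate-to-lactate isoenzyme of glycolytic cells, carried the largest change among the 45 rows in both knockdowns. Ldha RNA was 5.81-fold higher in the circSlc45a4 knockdown than in scramble and 4.81-fold higher in the Slc45a4 mRNA knockdown. Below it the knockdowns parted. In the circSlc45a4 knockdown Eno1 (enolase 1) and Pfkp (platelet-type phosphofructokinase) fell by 1.42 and 1.26 on the log2 scale, and Ogdh was not called. In the Slc45a4 mRNA knockdown Ogdh, the first subunit of the 2-oxoglutarate dehydrogenase complex, fell by 1.04 and Eno1 was not called.

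The 250 bases upstream of the start site of these 4 genes are shown because each was among the members that changed most. Slc2a4 and Eno1b, at -1.46 and -1.43 in the circSlc45a4 knockdown, are not shown. The windows are from RefSeq, build GRCm38.p6, written in the direction of transcription. They lie for Ldha at chr7:46845554-46845803, plus strand, for Eno1 at chr4:150236458-150236707, plus strand, for Pfkp at chr13:6648772-6649021, minus strand and for Ogdh at chr11:6291409-6291658, plus strand. Capitals mark matches on either strand to ACGTG or GCGTG, the core letters of the hypoxia response element, and to CACGTG, the E-box bound by basic helix-loop-helix factors, which contains ACGTG on both strands.
Ldha: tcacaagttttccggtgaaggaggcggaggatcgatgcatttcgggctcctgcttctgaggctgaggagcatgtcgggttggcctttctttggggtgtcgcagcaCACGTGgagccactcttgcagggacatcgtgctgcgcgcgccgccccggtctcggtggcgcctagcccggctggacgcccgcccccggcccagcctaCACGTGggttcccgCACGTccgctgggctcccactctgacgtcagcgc
Eno1: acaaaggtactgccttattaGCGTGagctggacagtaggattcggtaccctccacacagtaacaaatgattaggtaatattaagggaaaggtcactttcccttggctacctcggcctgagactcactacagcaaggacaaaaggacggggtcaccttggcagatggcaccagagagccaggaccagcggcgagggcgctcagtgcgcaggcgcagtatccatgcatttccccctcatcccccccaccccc
Pfkp: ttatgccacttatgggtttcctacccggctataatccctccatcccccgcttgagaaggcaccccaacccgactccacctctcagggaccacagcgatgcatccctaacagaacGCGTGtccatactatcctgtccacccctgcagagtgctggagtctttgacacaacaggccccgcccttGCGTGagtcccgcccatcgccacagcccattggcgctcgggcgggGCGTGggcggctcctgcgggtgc
Ogdh: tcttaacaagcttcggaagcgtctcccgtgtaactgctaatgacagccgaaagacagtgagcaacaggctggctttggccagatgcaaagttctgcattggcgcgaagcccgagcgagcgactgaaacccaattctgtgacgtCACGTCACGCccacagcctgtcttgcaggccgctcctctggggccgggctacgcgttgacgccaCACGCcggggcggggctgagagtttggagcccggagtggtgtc
The Ldha window held ACGTG 5 times, counting both strands, with CACGTG at 2 places, and no GCGTG. The Pfkp window held GCGTG 3 times and the Eno1 window once, and the Ogdh window held ACGTG once and GCGTG at 2 places. Such a window was found for 40 of the 44 symbols. ACGTG stood in 16 of the 40 (40.0%), against 16.6% of all 32851 windows of the same length. GCGTG stood in 22 (55.0%), against 28.2%, and CACGTG in 5 (12.5%), against 6.02%. For each symbol 1 window was taken, the one with the most protein-coding transcript starts within 50 bases. No window of Tpi1, Pgam1, Pdk3, Mpc2, Idh3b, Suclg1, Sdhb or Mdh1 had such a start, and the first listed was taken. All 32851 windows were counted without such a choice, so the shares are of unlike sets, and their difference was not tested. A match says only that these letters stand in the window.

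**Figure D1:**
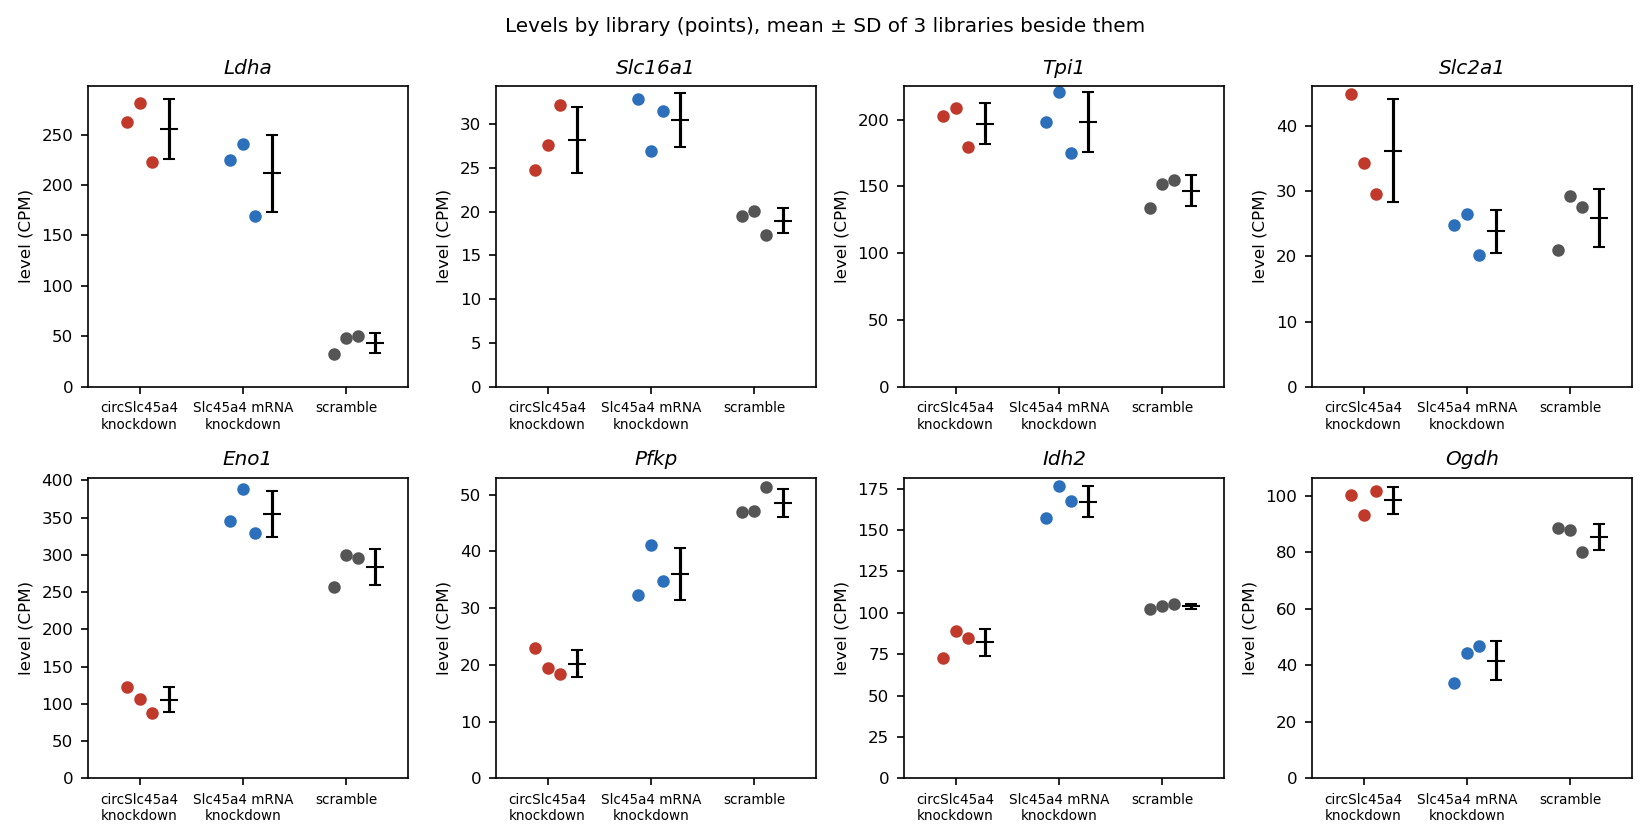
Level of 8 members in each library (points, CPM on a linear axis from 0), with the mean ± SD of the 3 libraries beside them, for the circSlc45a4 knockdown, the Slc45a4 mRNA knockdown and scramble. Ldha, Slc16a1 and Tpi1 stood above scramble in all 6 knockdown libraries, Eno1 and Idh2 moved apart between the knockdowns, and Ogdh was low in the Slc45a4 mRNA knockdown.

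In the circSlc45a4 knockdown, 13 of the 45 rows stood above scramble and 13 below it at an adjusted p under 0.05 (edgeR quasi-likelihood test, Benjamini-Hochberg over 17760 genes). That is 57.8% of the members, where 27.1% of all genes tested were called, 14.1% higher and 13.0% lower. In the Slc45a4 mRNA knockdown 10 were higher and 8 lower than in scramble, 40.0% against 18.0% of all genes, of which 8.92% were higher and 9.09% lower. Between the knockdowns, 7 stood higher and 8 lower in the circSlc45a4 knockdown, 33.3% against 26.1%, the share nearest to its background (13.8% higher and 12.3% lower). The background was not matched to the level of the members, none of which had fewer than 35 counts in a library. With a filter of at least 1 CPM in 3 libraries, 4740, 3317 and 4660 of 14986 genes were called in the 3 comparisons, a larger share than with the main filter. The changes were mostly small, with a median size among the called of 0.42, 0.43 and 0.61 on the log2 scale, and 5, 2 and 5 over 2-fold (6.58%, 2.61% and 4.99% of all genes). The median log2 fold change of the 45 rows was 0.03, 0.02 and -0.02, beside -0.01, 0.01 and -0.02 for all genes.

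The groups did not overlap for 33, 25 and 18 of the 45 rows (43.9%, 36.1% and 40.1% of all genes), and all called members were among them. At an unadjusted p under 0.05 stood 28, 27 and 18 rows, 62.2%, 60.0% and 40.0%, against 38.5%, 32.1% and 37.8% of all genes. Upper-quartile factors in place of TMM gave 8 higher and 14 lower in the circSlc45a4 knockdown against scramble. Both knockdowns were set against the same scramble libraries, so calls shared by them are not independent. Higher in both were 8 members, Slc16a1, Tpi1, Ldha, Dlat, Idh3b, Sdha, Mdh1 and Pfkfb3, and lower in both were 5, Hk2, Pfkp, Pdk2, Pdha1 and Idh1. Together they are 28.9% of the rows, against 8.40% of all genes. Called in opposite directions were 2, Eno1b and Idh2, against 0.704% of all genes. Most of the Eno1b sequence also stands in Eno1, which was not called in the Slc45a4 mRNA knockdown. The counts of rows given here include both, though their reads cannot be separated with certainty. The Eno1b call in the Slc45a4 mRNA knockdown ended in several alternatives, given with the member. Another 11 were called in the circSlc45a4 knockdown alone and 3 in the Slc45a4 mRNA knockdown alone, of which 9 and 3 also differed between the knockdowns. No comparison called the other 16 rows, whose log2 fold changes lay between -0.61 and 0.59.

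With the Xist level as a covariate, 6 calls were left in the circSlc45a4 knockdown against scramble (Slc2a3, Slc2a4, Pfkp, Eno1, Eno1b and Ldha) and 6 in the Slc45a4 mRNA knockdown against scramble (Slc16a1, Ldha, Dlat, Idh2, Ogdh and Pfkfb3). The direct comparison kept all 15 of its calls. The counts over all genes were lower under it too, at 1199 and 738. Since Xist was near 0 in all scramble libraries and in only 1 knockdown library, the covariate overlaps with the groups, and the part of each cannot be told apart. Every other member call against scramble ended under that covariate, and its value under the covariate is given with the member. With the replicate number as a block in the edgeR fit, the calls of Slc2a1, Gpi1 and Fh1 in the circSlc45a4 knockdown ended. So did those of Hk2, Eno1b, Pdk2 and Mpc1 in the Slc45a4 mRNA knockdown and of Ldhb between the knockdowns (adjusted p 0.0521 to 0.071). The block is not listed again with the members.

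**Figure D2:**
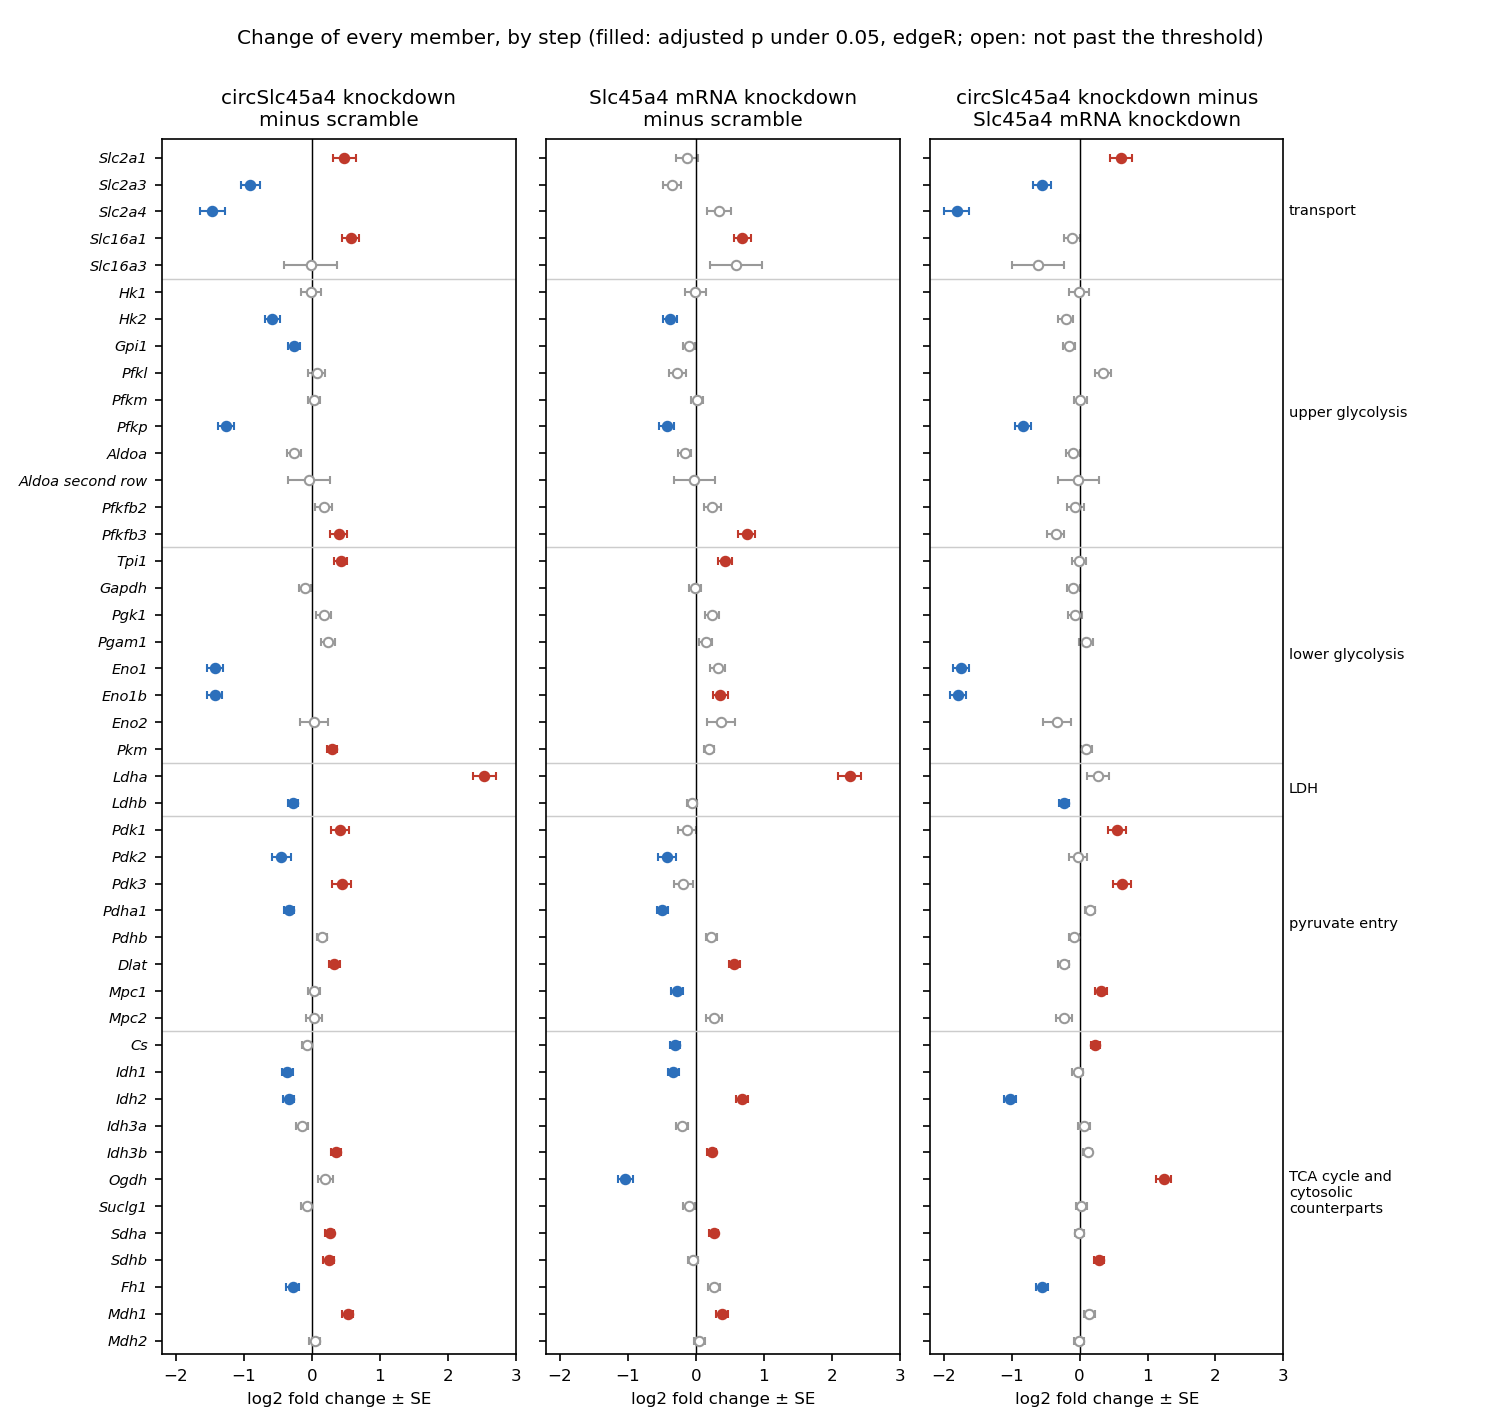
Log2 fold change ± SE of each of the 45 rows in the 3 comparisons, ordered by step. Filled points passed an adjusted p of 0.05 (red higher, blue lower) and open points did not. Ldha stands apart on the right in both comparisons with scramble, at 2.54 and 2.27, and lies at 0.27 between the knockdowns.

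Among the transporters, the neuronal and insulin-dependent glucose carriers fell in the circSlc45a4 knockdown while the ubiquitous glucose carrier and a lactate carrier rose. Of 5 members 2 were higher and 2 lower there, and 1 was higher and 0 lower in the Slc45a4 mRNA knockdown. Between the knockdowns 1 was higher and 2 lower. Of all genes 27.1% and 18.0% were called in the circSlc45a4 and Slc45a4 mRNA knockdowns against scramble, and 26.1% between the knockdowns. The counts by step here and below stand beside these shares, and no step was tested as a set. For transport, the count in the Slc45a4 mRNA knockdown lies near the share of all genes. Slc2a4 (GLUT4, the insulin-regulated glucose transporter; ENSMUSG00000018566.14, chromosome 11, 69942539 to 69948188, minus strand, GRCm38) had 2.82, 2.16 and 2.81 CPM in the circSlc45a4 knockdown, 9.51, 9.62 and 8.28 CPM in the Slc45a4 mRNA knockdown, and 5.54, 7.64 and 8.24 CPM in scramble. The circSlc45a4 knockdown libraries were lowest by far, and those of the Slc45a4 mRNA knockdown stood just above scramble. The log2 fold change was -1.46 ± 0.19 (SE, adjusted p = 9.64e-05) for the circSlc45a4 knockdown and 0.35 ± 0.18 (SE, adjusted p = 0.198) for the Slc45a4 mRNA knockdown against scramble, and -1.81 ± 0.19 (SE, adjusted p = 2.83e-05) between the knockdowns.

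Slc2a3 (GLUT3, the high-affinity glucose transporter of neurons) had 14.7, 19.2 and 17.2 CPM in the circSlc45a4 knockdown, 21.7, 29.3 and 24.1 CPM in the Slc45a4 mRNA knockdown, and 34.7, 30.6 and 30.1 CPM in scramble. The 3 groups did not overlap, with the circSlc45a4 knockdown lowest and scramble highest. Only the circSlc45a4 knockdown passed the threshold against scramble, at -0.90 ± 0.13 (SE, adjusted p = 2.83e-04), beside -0.34 ± 0.13 (SE, adjusted p = 0.0874) in the Slc45a4 mRNA knockdown, and the direct difference was -0.56 ± 0.13 (SE, adjusted p = 0.00784). Slc2a3 passed in the Slc45a4 mRNA knockdown at -0.47 (adjusted p = 0.0333) without Slc45a4 mRNA knockdown replicate 2. Slc2a1 (GLUT1, the broadly expressed glucose transporter, also abundant in brain endothelium) had 44.9, 34.3 and 29.5 CPM in the circSlc45a4 knockdown, 24.7, 26.5 and 20.1 CPM in the Slc45a4 mRNA knockdown, and 20.9, 29.3 and 27.6 CPM in scramble. All circSlc45a4 knockdown libraries stood above the other 6, the lowest by a small margin, and the log2 fold change was 0.48 ± 0.17 (SE, adjusted p = 0.0469) against scramble and 0.61 ± 0.16 (SE, adjusted p = 0.0163) against the Slc45a4 mRNA knockdown. The first call ended without circSlc45a4 knockdown replicate 1 or 2 or any scramble replicate (log2 fold change 0.29 to 0.58, adjusted p 0.0549 to 0.23), and with upper-quartile factors (0.42, 0.072), limma-voom (0.45, 0.0623). Under the Xist covariate it stood at 0.17 (adjusted p = 0.775). The second ended without circSlc45a4 knockdown replicate 1 or Slc45a4 mRNA knockdown replicate 3 (log2 fold change 0.43 to 0.50, adjusted p 0.067 to 0.0832). Endothelial markers were near 0, with 9 markers, none at 0 counts throughout, summing to 1.25 to 2.35 CPM in the circSlc45a4 knockdown, 1.85 to 2.43 CPM in the Slc45a4 mRNA knockdown and 2.53 to 5.21 CPM in scramble, and of the 4 that passed the filter 0 rose and 1 fell in the circSlc45a4 knockdown.

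Slc16a1 (MCT1, a lactate and pyruvate carrier; ENSMUSG00000032902.1, chromosome 3, 104638668 to 104658462, plus strand) had 24.7, 27.6 and 32.2 CPM in the circSlc45a4 knockdown, 32.8, 26.9 and 31.5 CPM in the Slc45a4 mRNA knockdown, and 19.5, 20.02 and 17.3 CPM in scramble. All 6 knockdown libraries stood above scramble. The log2 fold change was 0.57 ± 0.12 (SE, adjusted p = 0.00363) in the circSlc45a4 knockdown and 0.68 ± 0.12 (SE, adjusted p = 0.00192) in the Slc45a4 mRNA knockdown. With the Xist covariate the first was 0.63 (adjusted p = 0.103) and the second 0.72 (adjusted p = 0.0391). Slc16a3 (MCT4, the lactate exporter of glycolytic tissues) was the least abundant member per length. It had 3.62, 4.07 and 2.28 CPM in the circSlc45a4 knockdown, 6.69, 6.604 and 1.91 CPM in the Slc45a4 mRNA knockdown, and 2.63, 3.47 and 3.92 CPM in scramble. Its groups overlapped in every comparison, and the lowest of all libraries was Slc45a4 mRNA knockdown replicate 3. It was not called with all libraries. Against scramble the Slc45a4 mRNA knockdown was called at 0.98 (adjusted p = 0.0276) without Slc45a4 mRNA knockdown replicate 3, and the direct difference at -0.999 (adjusted p = 0.0173) without Slc45a4 mRNA knockdown replicate 3.

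In upper glycolysis, counted here up to aldolase with the regulatory Pfkfb enzymes, the kinase steps fell or stayed uncalled and a regulator rose. Of 10 rows 1 was higher and 3 were lower in the circSlc45a4 knockdown. In the Slc45a4 mRNA knockdown 1 was higher and 2 were lower. Between the knockdowns 0 were higher and 1 lower, a smaller share than the 26.1% of all genes. Pfkp (ENSMUSG00000021196.14, chromosome 13, 6579768 to 6648777, minus strand), 1 of 3 genes for the subunits of phosphofructokinase, the committed step of glycolysis, had 22.95, 19.4 and 18.3 CPM in the circSlc45a4 knockdown, 32.3, 41.2 and 34.8 CPM in the Slc45a4 mRNA knockdown, and 46.9, 47.2 and 51.3 CPM in scramble. The groups formed 3 separate ranges, lowest in the circSlc45a4 knockdown. The fall was -1.26 ± 0.12 (SE, adjusted p = 7.27e-06) in the circSlc45a4 knockdown and -0.43 ± 0.11 (0.0205) in the Slc45a4 mRNA knockdown, with a direct difference of -0.83 ± 0.12 (SE, adjusted p = 2.27e-04). The call in the Slc45a4 mRNA knockdown ended without Slc45a4 mRNA knockdown replicate 1 or 3 or scramble replicate 2 or 3 (log2 fold change -0.45 to -0.35, adjusted p 0.0604 to 0.0748), and with the Xist covariate it was -0.47 (adjusted p = 0.189). The other subunit genes were not called in any comparison. Pfkm, the muscle type, had 103, 109.5 and 103 CPM in the circSlc45a4 knockdown, 92.8, 112 and 108 CPM in the Slc45a4 mRNA knockdown, and 109, 108 and 93.3 CPM in scramble. Pfkl, the liver type, had 96.6, 86.9 and 72.7 CPM in the circSlc45a4 knockdown, 62.1, 77.7 and 62.6 CPM in the Slc45a4 mRNA knockdown, and 71.9, 85.8 and 86.03 CPM in scramble, with 0.34 ± 0.12 (SE, adjusted p = 0.0518) between the knockdowns. That difference was called at 0.44 (adjusted p = 0.0185) without circSlc45a4 knockdown replicate 3 and 0.46 (adjusted p = 0.0199) without Slc45a4 mRNA knockdown replicate 2 and 0.34 (adjusted p = 0.0473) without scramble replicate 1.

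Hk2 (hexokinase 2, which commits glucose to the cell; ENSMUSG00000000628.10, chromosome 6, 82725025 to 82774454, minus strand) had 20.7, 24.7 and 22.9 CPM in the circSlc45a4 knockdown, 28.98, 25.1 and 24.5 CPM in the Slc45a4 mRNA knockdown, and 30.7, 36.6 and 34.7 CPM in scramble. Every knockdown library lay below every scramble library, and the knockdowns overlapped each other. The log2 fold change was -0.58 ± 0.11 (SE, adjusted p = 0.00177) in the circSlc45a4 knockdown, -0.69 (adjusted p = 0.0582) with the Xist covariate, and -0.38 ± 0.11 (SE, adjusted p = 0.0305) in the Slc45a4 mRNA knockdown. That call ended without Slc45a4 mRNA knockdown replicate 2 or 3 or scramble replicate 2 or 3 (log2 fold change -0.36 to -0.32, adjusted p 0.082 to 0.137), and with the covariate it was -0.46 (adjusted p = 0.179). Hk1, the hexokinase that most tissues and the brain use, had 41.3, 44.8 and 45.9 CPM in the circSlc45a4 knockdown, 32.5, 52.9 and 47.2 CPM in the Slc45a4 mRNA knockdown, and 48.4, 46.9 and 37.99 CPM in scramble and was not called in any comparison.

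Gpi1 (glucose-6-phosphate isomerase) had 147, 133 and 124 CPM in the circSlc45a4 knockdown, 144, 164 and 144 CPM in the Slc45a4 mRNA knockdown, and 155, 163 and 166 CPM in scramble. It was lower in the circSlc45a4 knockdown than in any scramble library at -0.26 ± 0.08 (SE, adjusted p = 0.0363). That call ended without circSlc45a4 knockdown replicate 2 or 3 or Slc45a4 mRNA knockdown replicate 3 or any scramble replicate (log2 fold change -0.29 to -0.20, adjusted p 0.0519 to 0.133), and with the Xist covariate it was -0.34 (adjusted p = 0.221). Pfkfb3, the enzyme that makes the phosphofructokinase activator fructose 2,6-bisphosphate, had 59.2, 61.95 and 72.3 CPM in the circSlc45a4 knockdown, 64.9, 93.1 and 89.2 CPM in the Slc45a4 mRNA knockdown, and 51.1, 49.6 and 46.4 CPM in scramble. Both knockdowns stood above scramble, at 0.40 ± 0.13 (SE, adjusted p = 0.0314) in the circSlc45a4 knockdown and 0.75 ± 0.13 (SE, adjusted p = 0.00122) in the Slc45a4 mRNA knockdown. The first of these ended without circSlc45a4 knockdown replicate 2 or 3 or any scramble replicate (log2 fold change 0.31 to 0.43, adjusted p 0.0545 to 0.121) and with upper-quartile factors (0.34, 0.0565). It stood at 0.59 (adjusted p = 0.12) with the Xist covariate. The direct difference was called only when 1 library was left out, at -0.44 (adjusted p = 0.0332) without circSlc45a4 knockdown replicate 3 and -0.50 (adjusted p = 0.00199) without Slc45a4 mRNA knockdown replicate 1, or under some of the other settings. Its paralog Pfkfb2 had 20.1, 17.1 and 23.4 CPM in the circSlc45a4 knockdown, 19.5, 21.1 and 22.9 CPM in the Slc45a4 mRNA knockdown, and 18.8, 16.6 and 18.2 CPM in scramble, without a call. Aldolase A, the isoform of most tissues, had 98.6 to 111 CPM in the circSlc45a4 knockdown, 103 to 131 CPM in the Slc45a4 mRNA knockdown, and 117 to 134 CPM in scramble on its main row and 2.19 to 2.95 CPM in the circSlc45a4 knockdown, 2.08 to 3.10 CPM in the Slc45a4 mRNA knockdown, and 1.67 to 3.83 CPM in scramble on the second, with no call on either, though the main row passed in the circSlc45a4 knockdown at -0.26 (adjusted p = 0.033) without Slc45a4 mRNA knockdown replicate 2.

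In lower glycolysis, counted here from triose phosphate isomerase on, triose phosphate isomerase rose in both knockdowns and the enolase rows fell in the circSlc45a4 knockdown alone. Of 8 rows 2 rose and 2 fell in the circSlc45a4 knockdown. In the Slc45a4 mRNA knockdown 2 were higher and 0 lower, little above the 18.0% of all genes. Between the knockdowns 0 were higher and 2 lower, near the 26.1% of all genes. Eno1 (ENSMUSG00000063524.13, chromosome 4, 150236721 to 150248879, plus strand), which makes phosphoenolpyruvate, had 123, 107 and 88.04 CPM in the circSlc45a4 knockdown, 346, 389 and 329 CPM in the Slc45a4 mRNA knockdown, and 257, 299.6 and 295 CPM in scramble. The circSlc45a4 knockdown lay far below scramble and the Slc45a4 mRNA knockdown above it, with no overlap between any of the groups. The log2 fold change was -1.42 ± 0.12 (SE, adjusted p = 3.04e-06) in the circSlc45a4 knockdown and 0.32 ± 0.11 (SE, adjusted p = 0.0678) in the Slc45a4 mRNA knockdown, and -1.75 ± 0.12 (SE, adjusted p = 1.11e-06) between them. The Slc45a4 mRNA knockdown passed at 0.32 (adjusted p = 0.035) without circSlc45a4 knockdown replicate 3.

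Eno1b is an enolase gene whose sequence nearly copies Eno1. Of its exonic 50-base words 76.4% also stand in Eno1 and 85.2% in some other gene, so reads of both cannot be separated with certainty. Its counts were 0.590 to 0.623 times those of Eno1 in all 9 libraries, and its values follow those of Eno1, with 72.9, 62.96 and 54.4 CPM in the circSlc45a4 knockdown, 215, 242 and 201 CPM in the Slc45a4 mRNA knockdown, and 153, 184 and 176 CPM in scramble. Its log2 fold changes were -1.43 ± 0.11 (SE, adjusted p = 2.60e-06) and 0.36 ± 0.11 (SE, adjusted p = 0.039) against scramble and -1.79 ± 0.11 (SE, adjusted p = 8.54e-07) between the knockdowns. The rise in the Slc45a4 mRNA knockdown ended without circSlc45a4 knockdown replicate 2 or Slc45a4 mRNA knockdown replicate 1 or 2 or any scramble replicate (log2 fold change 0.28 to 0.41, adjusted p 0.0557 to 0.136), and with the Xist covariate it was 0.24 (adjusted p = 0.511). Eno2, the enolase of mature neurons, had 13.9, 18.6 and 16.02 CPM in the circSlc45a4 knockdown, 14.9, 25.99 and 20.2 CPM in the Slc45a4 mRNA knockdown, and 19.98, 15.4 and 12.1 CPM in scramble. The groups overlapped, without a call.

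Tpi1 (triose phosphate isomerase; ENSMUSG00000023456.14, chromosome 6, 124810586 to 124814296, minus strand) had 203, 209 and 179.7 CPM in the circSlc45a4 knockdown, 199, 221 and 175 CPM in the Slc45a4 mRNA knockdown, and 134, 152 and 155 CPM in scramble. The knockdowns overlapped each other and both lay above scramble, at 0.42 ± 0.10 (SE, adjusted p = 0.00609) and 0.43 ± 0.10 (SE, adjusted p = 0.00847), and 0.22 (adjusted p = 0.469) and 0.27 (adjusted p = 0.339) with the Xist covariate. Pkm (pyruvate kinase, the last step of glycolysis), the second most abundant member in scramble per length, had 904, 899 and 862 CPM in the circSlc45a4 knockdown, 777, 897 and 815 CPM in the Slc45a4 mRNA knockdown, and 676, 752 and 744 CPM in scramble. Both knockdowns lay above scramble, and the circSlc45a4 knockdown passed the threshold at 0.29 ± 0.08 (SE, adjusted p = 0.0127), beside 0.20 ± 0.08 (SE, adjusted p = 0.0986) in the Slc45a4 mRNA knockdown. The call ended without scramble replicate 1 (log2 fold change 0.25, adjusted p = 0.0635), and with the Xist covariate it was 0.29 (adjusted p = 0.248). In the Slc45a4 mRNA knockdown it passed at 0.25 (adjusted p = 0.0397) without Slc45a4 mRNA knockdown replicate 1. The table does not separate the splice forms of Pkm. Gapdh, Pgk1 and Pgam1, the dehydrogenase, kinase and mutase between these steps, were not called in any comparison, with log2 fold changes between -0.10 and 0.24. Gapdh had 317 to 349 CPM in the circSlc45a4 knockdown, 340.3 to 385 CPM in the Slc45a4 mRNA knockdown, and 316 to 383 CPM in scramble. Pgk1 had 259 to 285 CPM in the circSlc45a4 knockdown, 239.5 to 324 CPM in the Slc45a4 mRNA knockdown, and 215 to 259 CPM in scramble, and passed in the Slc45a4 mRNA knockdown at 0.35 (adjusted p = 0.0425) without Slc45a4 mRNA knockdown replicate 3. Pgam1 had 225 to 263 CPM in the circSlc45a4 knockdown, 195 to 252 CPM in the Slc45a4 mRNA knockdown, and 191 to 216 CPM in scramble. Beside Eno1b, more than 20% of the words stood in other genes, mostly pseudogenes and copies, for Pgk1 (53.9%), Pgam1 (36.2%), Mpc1 (26.3%), Eno1 (26.0%), Pkm (25.8%), Gapdh (25.1%) and Ldhb (21.0%).

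The RNA of lactate dehydrogenase changed its make-up. Ldha (ENSMUSG00000063229.15, chromosome 7, 46841475 to 46855627, plus strand) had 262, 282 and 223 CPM in the circSlc45a4 knockdown, 225, 241 and 169 CPM in the Slc45a4 mRNA knockdown, and 32.5, 48.1 and 50.8 CPM in scramble. The lowest knockdown library was more than 3 times the highest scramble library, and the knockdowns overlapped each other. Ldha averaged 255 ± 29.95 CPM in the circSlc45a4 knockdown, 212 ± 37.97 CPM in the Slc45a4 mRNA knockdown and 43.8 ± 9.85 CPM in scramble (SD, n = 3 each). Its log2 fold change was 2.54 ± 0.17 (SE, adjusted p = 8.30e-07) and 2.27 ± 0.17 (SE, adjusted p = 4.14e-06), and 0.27 ± 0.16 (SE, adjusted p = 0.231) between the knockdowns. It passed the threshold against scramble in all 18 alternatives, at 2.174 to 2.66 in the circSlc45a4 knockdown and 1.97 to 2.41 in the Slc45a4 mRNA knockdown. Slc45a4 mRNA knockdown replicate 3, the knockdown library without Xist, had the lowest Ldha of the knockdown libraries. Its 169 CPM stood above all scramble libraries, and the part of sex was not tested.

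Ldhb (lactate dehydrogenase B, the subunit of oxidative tissues; ENSMUSG00000030246.11, chromosome 6, 142490249 to 142507957, minus strand) had 189, 193 and 210.1 CPM in the circSlc45a4 knockdown, 228, 236 and 229 CPM in the Slc45a4 mRNA knockdown, and 249.7, 234 and 234 CPM in scramble. The circSlc45a4 knockdown lay below all other libraries, at -0.28 ± 0.07 (SE, adjusted p = 0.012) against scramble and -0.23 ± 0.07 (SE, adjusted p = 0.032) against the Slc45a4 mRNA knockdown, while the Slc45a4 mRNA knockdown overlapped scramble at -0.05 ± 0.07 (SE, adjusted p = 0.69). The first call ended without circSlc45a4 knockdown replicate 1 or scramble replicate 1 (log2 fold change -0.25, adjusted p 0.0514 to 0.056), and was -0.30 (adjusted p = 0.204) with the Xist covariate. The second ended without circSlc45a4 knockdown replicate 1 or 2 or Slc45a4 mRNA knockdown replicate 2 or 3 or scramble replicate 2 (log2 fold change -0.23 to -0.19, adjusted p 0.0577 to 0.145) or with no filter on low counts (-0.23, 0.0824), a fit of the 6 libraries compared (-0.23, 0.0657). Per kilobase of exon, Ldha made up 39.7%, 40.9% and 33.5% of the RNA of both genes in the circSlc45a4 knockdown. Its share was 31.9%, 32.7% and 25.9% in the Slc45a4 mRNA knockdown, against 5.82%, 8.88% and 9.35% in scramble. These shares depend on the exon length used. In CPM, not divided by length, Ldha stood above Ldhb in every circSlc45a4 knockdown library. The fold change of their ratio between groups does not depend on length. The summed level of Ldha and Ldhb was 433 to 474 CPM in the circSlc45a4 knockdown, 398 to 477 CPM in the Slc45a4 mRNA knockdown and 282 to 284 CPM in scramble.

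At the entry of pyruvate into mitochondria, the pyruvate dehydrogenase kinases split. These kinases phosphorylate and switch off the complex. Of 8 members 3 rose and 2 fell in the circSlc45a4 knockdown, 1 was higher and 3 were lower in the Slc45a4 mRNA knockdown, and 3 were higher and 0 lower between them. Pdk1 (ENSMUSG00000006494.11, chromosome 2, 71873224 to 71903858, plus strand), a kinase isoform that hypoxia is known to induce, had 36.6, 37.97 and 33.8 CPM in the circSlc45a4 knockdown, 22.6, 30.8 and 20.7 CPM in the Slc45a4 mRNA knockdown, and 28.5, 26.6 and 26.3 CPM in scramble. The circSlc45a4 knockdown lay above all other libraries, at 0.41 ± 0.13 (SE, adjusted p = 0.0331) against scramble and 0.55 ± 0.13 (SE, adjusted p = 0.00831) against the Slc45a4 mRNA knockdown. Pdk3, an X-linked isoform, had 24.2, 19.9 and 19.1 CPM in the circSlc45a4 knockdown, 16.4, 12.8 and 11.8 CPM in the Slc45a4 mRNA knockdown, and 15.4, 16.1 and 15.2 CPM in scramble. It was again highest in every circSlc45a4 knockdown library, at 0.44 ± 0.14 (SE, adjusted p = 0.0317) and 0.62 ± 0.14 (SE, adjusted p = 0.00519). Both calls against scramble ended when any 1 of several libraries was left out, while the log2 fold changes kept their direction. That of Pdk1 ended without circSlc45a4 knockdown replicate 1 or 2 or any scramble replicate (log2 fold change 0.38 to 0.45, adjusted p 0.053 to 0.106) and with upper-quartile factors (0.36, 0.0592). That of Pdk3 ended without circSlc45a4 knockdown replicate 1 or 2 or any scramble replicate (log2 fold change 0.32 to 0.47, adjusted p 0.0509 to 0.138) and with upper-quartile factors (0.38, 0.0552). With the Xist covariate they stood at 0.10 (adjusted p = 0.828) and 0.11 (adjusted p = 0.812) against scramble, while the direct differences stayed called at 0.48 (adjusted p = 0.0186) and 0.55 (adjusted p = 0.0121).

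Pdk2, the most broadly expressed kinase isoform, had 28.8, 23.4 and 22.97 CPM in the circSlc45a4 knockdown, 21.8, 28.2 and 26.3 CPM in the Slc45a4 mRNA knockdown, and 37.3, 36.4 and 28.8 CPM in scramble. It was lower in both knockdowns, at -0.45 ± 0.14 (SE, adjusted p = 0.0259) and -0.42 ± 0.14 (SE, adjusted p = 0.0451). The first ended without circSlc45a4 knockdown replicate 2 or 3 or scramble replicate 1 or 2 (log2 fold change -0.40 to -0.38, adjusted p 0.0892 to 0.105). The second ended without circSlc45a4 knockdown replicate 2 or 3 or Slc45a4 mRNA knockdown replicate 1 or 3 or scramble replicate 1 or 2 (log2 fold change -0.45 to -0.32, adjusted p 0.0521 to 0.163) and with limma-voom (-0.41, 0.0556), a fit of the 6 libraries compared (-0.44, 0.051). Both ended with the Xist covariate, at -0.39 (adjusted p = 0.38) and -0.38 (adjusted p = 0.384). Pdha1 (the X-linked catalytic subunit of pyruvate dehydrogenase; ENSMUSG00000031299.10, chromosome X, 160122209 to 160138413, minus strand) had 69.1, 78.4 and 79.2 CPM in the circSlc45a4 knockdown, 66.3, 67.6 and 69.8 CPM in the Slc45a4 mRNA knockdown, and 94.97, 98.2 and 93.1 CPM in scramble. All knockdown libraries lay below scramble, at -0.34 ± 0.08 (SE, adjusted p = 0.00565) and -0.49 ± 0.08 (SE, adjusted p = 8.19e-04), and at -0.27 (adjusted p = 0.29) and -0.44 (adjusted p = 0.0677) with the Xist covariate.

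Dlat, the acetyltransferase core of the same complex, moved the other way, with 40.98, 43.4 and 37.7 CPM in the circSlc45a4 knockdown, 48.9, 48.1 and 46.8 CPM in the Slc45a4 mRNA knockdown, and 33.5, 32.1 and 31.4 CPM in scramble. The groups formed 3 ranges, highest in the Slc45a4 mRNA knockdown. Dlat differed by 0.33 ± 0.09 (SE, adjusted p = 0.0112) and 0.57 ± 0.09 (SE, adjusted p = 6.01e-04) against scramble, and -0.24 ± 0.08 (SE, adjusted p = 0.0539) between the knockdowns. The first became 0.28 (adjusted p = 0.304) with the Xist covariate. Pdhb, the partner subunit of Pdha1, was not called, with 98.6 to 104 CPM in the circSlc45a4 knockdown, 103 to 116 CPM in the Slc45a4 mRNA knockdown, and 84.98 to 96.2 CPM in scramble. Of the mitochondrial pyruvate carrier, Mpc1 had 42.7, 46.9 and 45.4 CPM in the circSlc45a4 knockdown, 34.5, 38.2 and 36.04 CPM in the Slc45a4 mRNA knockdown, and 46.8, 42.1 and 43.2 CPM in scramble. It was lowest in every Slc45a4 mRNA knockdown library, at -0.28 ± 0.09 (SE, adjusted p = 0.0398) against scramble and 0.31 ± 0.09 (SE, adjusted p = 0.0171) between the knockdowns. The first ended without circSlc45a4 knockdown replicate 3 or Slc45a4 mRNA knockdown replicate 1 or 3 or any scramble replicate (log2 fold change -0.31 to -0.23, adjusted p 0.0524 to 0.138) and with no filter on low counts (-0.28, 0.0745), a fit of the 6 libraries compared (-0.29, 0.0529), and was -0.28 (adjusted p = 0.314) with the Xist covariate. The second ended without circSlc45a4 knockdown replicate 2 (log2 fold change 0.29, adjusted p = 0.0568). Its partner subunit Mpc2 had 23.2, 25.3 and 24.3 CPM in the circSlc45a4 knockdown, 29.6, 30.6 and 25.4 CPM in the Slc45a4 mRNA knockdown, and 28.01, 22.2 and 21.1 CPM in scramble. No comparison called it, though the Slc45a4 mRNA knockdown passed at 0.40 (adjusted p = 0.0422) without scramble replicate 1.

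In the TCA cycle, consecutive steps moved in different directions and the knockdowns differed most at 2 of them, isocitrate dehydrogenase 2 and 2-oxoglutarate dehydrogenase. Of 12 members, counted with the cytosolic enzymes Idh1 and Mdh1, 4 rose and 3 fell in the circSlc45a4 knockdown, 4 were higher and 3 lower in the Slc45a4 mRNA knockdown, and 3 higher and 2 lower between them. Cs (citrate synthase, the entry step) had 235, 252 and 248 CPM in the circSlc45a4 knockdown, 201, 215 and 209 CPM in the Slc45a4 mRNA knockdown, and 255, 255 and 263 CPM in scramble. It was lowest in the Slc45a4 mRNA knockdown, at -0.31 ± 0.07 (SE, adjusted p = 0.00814), beside -0.07 ± 0.07 (SE, adjusted p = 0.472) in the circSlc45a4 knockdown, whose libraries also lay below scramble without passing the threshold. That of the Slc45a4 mRNA knockdown became -0.29 (adjusted p = 0.178) with the Xist covariate. The difference between the knockdowns, 0.23 ± 0.07 (SE, adjusted p = 0.0241), ended without circSlc45a4 knockdown replicate 2 or 3 or Slc45a4 mRNA knockdown replicate 1 or 3 (log2 fold change 0.21 to 0.24, adjusted p 0.0511 to 0.065) and with upper-quartile factors (0.18, 0.0743), no filter on low counts (0.24, 0.0655), a fit of the 6 libraries compared (0.23, 0.0622).

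Idh2 (the mitochondrial NADP-dependent isocitrate dehydrogenase; ENSMUSG00000030541.16, chromosome 7, 80094846 to 80115392, minus strand) had 72.9, 88.9 and 84.6 CPM in the circSlc45a4 knockdown, 158, 176 and 168 CPM in the Slc45a4 mRNA knockdown, and 103, 104 and 106 CPM in scramble. The circSlc45a4 knockdown lay below scramble and the Slc45a4 mRNA knockdown above it, with no overlap. The log2 fold change was -0.34 ± 0.08 (SE, adjusted p = 0.00908) in the circSlc45a4 knockdown and 0.68 ± 0.08 (SE, adjusted p = 1.44e-04) in the Slc45a4 mRNA knockdown, and -1.03 ± 0.08 (SE, adjusted p = 5.17e-06) between them. With the Xist covariate the first was -0.30 (adjusted p = 0.275) and the second 0.71 (adjusted p = 0.00784). Its cytosolic counterpart Idh1 had 188, 209 and 218 CPM in the circSlc45a4 knockdown, 202, 222 and 204 CPM in the Slc45a4 mRNA knockdown, and 278, 255 and 258 CPM in scramble. It was lower in both knockdowns at -0.36 ± 0.08 (SE, adjusted p = 0.00465) and -0.33 ± 0.08 (SE, adjusted p = 0.0119). The call in the Slc45a4 mRNA knockdown ended without scramble replicate 1 (log2 fold change -0.29, adjusted p = 0.0541). The Xist covariate gave -0.41 (adjusted p = 0.116) and -0.37 (adjusted p = 0.137).

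Of the NAD-dependent isocitrate dehydrogenase of the cycle, the regulatory subunit Idh3b had 108, 105 and 98.4 CPM in the circSlc45a4 knockdown, 97.2, 97.1 and 93.2 CPM in the Slc45a4 mRNA knockdown, and 81.2, 85.1 and 78.4 CPM in scramble. Both knockdowns lay above scramble, at 0.35 ± 0.07 (SE, adjusted p = 0.00306) and 0.23 ± 0.07 (SE, adjusted p = 0.0409). The call in the Slc45a4 mRNA knockdown ended without circSlc45a4 knockdown replicate 1 or 2 or any Slc45a4 mRNA knockdown replicate or any scramble replicate (log2 fold change 0.21 to 0.26, adjusted p 0.0596 to 0.144) and with no filter on low counts (0.23, 0.108), a fit of the 6 libraries compared (0.22, 0.0651). Both calls ended with the Xist covariate, at 0.29 (adjusted p = 0.212) and 0.19 (adjusted p = 0.427). The catalytic subunit Idh3a was not called, with 57.4, 61.2 and 58.5 CPM in the circSlc45a4 knockdown, 55.1, 62.3 and 51.96 CPM in the Slc45a4 mRNA knockdown, and 68.6, 61.6 and 65.1 CPM in scramble.

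Ogdh (ENSMUSG00000020456.17, chromosome 11, 6291633 to 6356642, plus strand), whose complex makes succinyl-CoA, had 100.05, 92.96 and 102 CPM in the circSlc45a4 knockdown, 33.8, 44.3 and 46.6 CPM in the Slc45a4 mRNA knockdown, and 88.4, 87.9 and 80.1 CPM in scramble. The Slc45a4 mRNA knockdown libraries were lowest, and the circSlc45a4 knockdown lay just above scramble. Its log2 fold change was -1.04 ± 0.11 (SE, adjusted p = 4.01e-05) in the Slc45a4 mRNA knockdown and 0.20 ± 0.11 (SE, adjusted p = 0.185) in the circSlc45a4 knockdown, and 1.24 ± 0.11 (SE, adjusted p = 7.59e-06) between the knockdowns. The circSlc45a4 knockdown passed at 0.21 (adjusted p = 0.042) without Slc45a4 mRNA knockdown replicate 1. Suclg1, of succinyl-CoA ligase, was not called, with 57.4 to 64.5 CPM in the circSlc45a4 knockdown, 55.9 to 61.1 CPM in the Slc45a4 mRNA knockdown, and 60.2 to 67.7 CPM in scramble.

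Sdha, the flavoprotein of succinate dehydrogenase, which is also complex II of the respiratory chain, had 137, 144 and 140.4 CPM in the circSlc45a4 knockdown, 139, 144 and 139 CPM in the Slc45a4 mRNA knockdown, and 116, 119 and 115 CPM in scramble. All knockdown libraries lay above scramble, at 0.27 ± 0.07 (SE, adjusted p = 0.00988) and 0.27 ± 0.07 (SE, adjusted p = 0.0137), the second ending without scramble replicate 2 or 3 (log2 fold change 0.26 to 0.28, adjusted p 0.0527 to 0.0544). Neither passed with the Xist covariate, at 0.25 (adjusted p = 0.258) and 0.26 (adjusted p = 0.217). Sdhb, its iron-sulfur subunit, had 100.3, 112 and 97.6 CPM in the circSlc45a4 knockdown, 87.1, 86.9 and 79.4 CPM in the Slc45a4 mRNA knockdown, and 86.03, 86.8 and 88.1 CPM in scramble. It was higher in the circSlc45a4 knockdown alone, at 0.25 ± 0.08 (SE, adjusted p = 0.0305) against scramble and 0.29 ± 0.08 (SE, adjusted p = 0.0146) against the Slc45a4 mRNA knockdown. The first ended without circSlc45a4 knockdown replicate 1 or 2 or any scramble replicate (log2 fold change 0.19 to 0.26, adjusted p 0.0546 to 0.123) and with upper-quartile factors (0.19, 0.0841), no filter on low counts (0.25, 0.0606), and was 0.14 (adjusted p = 0.6) with the Xist covariate. The second ended without circSlc45a4 knockdown replicate 2 or Slc45a4 mRNA knockdown replicate 3 (log2 fold change 0.24 to 0.25, adjusted p 0.0537 to 0.0621).

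Fh1 (fumarate hydratase) had 28.98, 31.1 and 29.5 CPM in the circSlc45a4 knockdown, 45.5, 45.9 and 40.1 CPM in the Slc45a4 mRNA knockdown, and 38.3, 33.9 and 36.9 CPM in scramble. The circSlc45a4 knockdown lay lowest and the Slc45a4 mRNA knockdown highest, without overlap, at -0.28 ± 0.09 (SE, adjusted p = 0.0364) and 0.27 ± 0.09 (SE, adjusted p = 0.0573) against scramble and -0.55 ± 0.09 (SE, adjusted p = 7.89e-04) between them. The first ended without any circSlc45a4 knockdown replicate or scramble replicate 1 or 3 (log2 fold change -0.31 to -0.25, adjusted p 0.0534 to 0.114) and with no filter on low counts (-0.28, 0.0701), and was -0.46 (adjusted p = 0.101) with the Xist covariate. The second passed at 0.33 (adjusted p = 0.0457) without Slc45a4 mRNA knockdown replicate 3. Mdh1, the cytosolic malate dehydrogenase (ENSMUSG00000020321.15, chromosome 11, 21556787 to 21572367, minus strand), had 181, 215 and 187 CPM in the circSlc45a4 knockdown, 187, 176 and 166 CPM in the Slc45a4 mRNA knockdown, and 130.0, 138 and 135 CPM in scramble. It was higher in every knockdown library than in scramble, at 0.53 ± 0.08 (SE, adjusted p = 4.81e-04) and 0.39 ± 0.08 (SE, adjusted p = 0.00634), and 0.43 (adjusted p = 0.103) and 0.31 (adjusted p = 0.215) with the Xist covariate. Mdh2, the mitochondrial malate dehydrogenase, had 223, 239 and 222 CPM in the circSlc45a4 knockdown, 209.8, 248 and 231 CPM in the Slc45a4 mRNA knockdown, and 223, 223 and 218 CPM in scramble. No comparison called it.

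**Figure D3:**
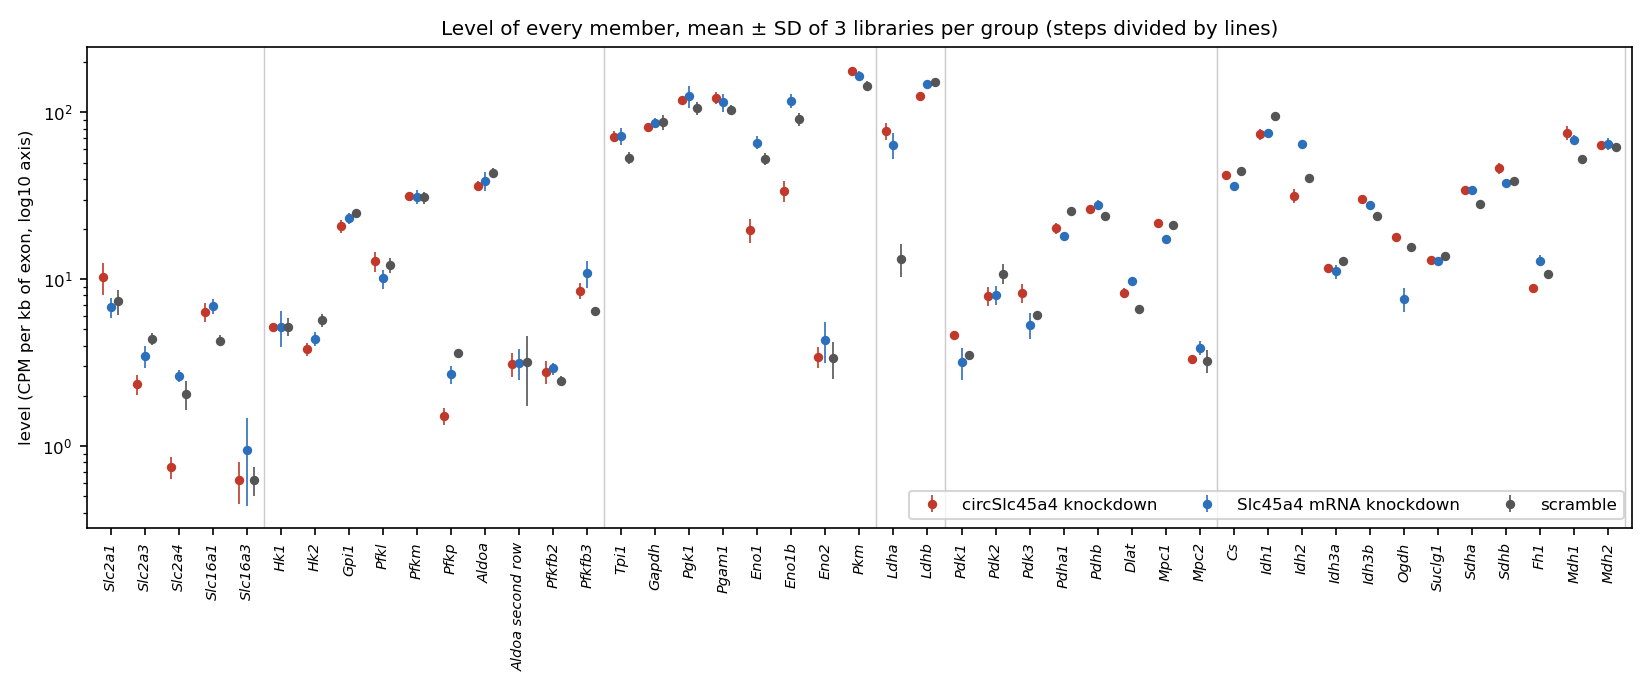
Level of each of the 45 rows in CPM per kilobase of exon (log10 axis), as mean ± SD of 3 libraries for the circSlc45a4 knockdown, the Slc45a4 mRNA knockdown and scramble, ordered by step. Most members of lower glycolysis, other than Eno2 and the enolase rows of the circSlc45a4 knockdown, and Ldhb lie near 100 CPM per kb and transporters near 1 to 10, and Ldha lies near Gapdh in both knockdowns and well below it in scramble.

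Levels can be set against each other only per length. In scramble the highest were Ldhb at 152 ± 5.82 and Pkm at 145 ± 8.398 CPM per kilobase of exon (mean ± SD, n = 3), which overlap within their spread, as did the next, Pgk1 at 106 ± 9.81 and Pgam1 at 104 ± 6.59. The lowest were Slc2a4 at 2.05 ± 0.407 and Slc16a3 at 0.628 ± 0.123. Ldha had rank 25 of the 45 in scramble, at 13.2 ± 2.98 CPM per kilobase, near Suclg1 and Idh3a. In the circSlc45a4 knockdown it stood at 77.2 ± 9.05, within the spread of Gapdh at 81.3 ± 4.0004, and in the Slc45a4 mRNA knockdown at 63.9 ± 11.5. Pfkp was the least abundant phosphofructokinase in every library, at 3.07 to 3.64% of the 3 genes in the circSlc45a4 knockdown and 5.86 to 6.36% in the Slc45a4 mRNA knockdown, against 7.24 to 8.58% in scramble, and Pfkm made up 62.6 to 73.0% throughout. Pfkp was also the lowest of the 3 in CPM in every library, but by a smaller margin, so these shares depend on the exon length used.

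The balance between isoenzymes was compared within each library, which removes the scaling of libraries. Of 14 ratios of levels per kilobase, 11 passed an adjusted p under 0.05 in an exact permutation test over the 3 groups (1680 assignments of the libraries, smallest possible p = 0.00357, Benjamini-Hochberg over the 14). Ratios of other gene pairs were not run, so no share over all genes stands beside the 11. Some ratios share a gene, and many hold a member called above, so they are not independent of those calls. The Xist covariate was not used for ratios. Ldhb over Ldha was 1.52, 1.44 and 1.99 in the circSlc45a4 knockdown, 2.14, 2.06 and 2.87 in the Slc45a4 mRNA knockdown, and 16.2, 10.3 and 9.69 in scramble. Every knockdown library lay far below scramble, and the exact permutation test gave p = 0.00357, adjusted p = 0.025. Pfkm over Pfkp was 18.02, 22.6 and 22.6 in the circSlc45a4 knockdown, 11.5, 10.9 and 12.4 in the Slc45a4 mRNA knockdown, and 9.31, 9.15 and 7.29 in scramble, highest in the circSlc45a4 knockdown and lowest in scramble without overlap (exact permutation test, p = 0.00357, adjusted p = 0.025). Pfkl over Pfkp averaged 8.47 ± 0.509 in the circSlc45a4 knockdown and 3.75 ± 0.127 in the Slc45a4 mRNA knockdown, against 3.36 ± 0.288 in scramble (SD, n = 3 each), with p = 0.00714, adjusted p = 0.025 in the exact test.

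Idh2 over Idh1 was 0.415, 0.455 and 0.417 in the circSlc45a4 knockdown, 0.835, 0.850 and 0.882 in the Slc45a4 mRNA knockdown, and 0.395, 0.437 and 0.439 in scramble. The Slc45a4 mRNA knockdown stood apart, and the circSlc45a4 knockdown overlapped scramble (exact permutation test, p = 0.0321, adjusted p = 0.0409). Both isocitrate dehydrogenases had fallen in the circSlc45a4 knockdown by like amounts, -0.34 and -0.36 on the log2 scale. Mpc2 over Mpc1 followed the same order of groups, with 0.154, 0.153 and 0.152 in the circSlc45a4 knockdown, 0.243, 0.227 and 0.199 in the Slc45a4 mRNA knockdown, and 0.170, 0.149 and 0.139 in scramble (exact permutation test, p = 0.0321, adjusted p = 0.0409).

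The circSlc45a4 knockdown differed from both other groups in Slc2a1 over Slc2a3, Eno2 over Eno1, Pdk3 over Pdk2 and Pdk1 over Pdk2. Slc2a1 over Slc2a3 was 6.31, 3.69 and 3.55 in the circSlc45a4 knockdown, 2.35, 1.87 and 1.73 in the Slc45a4 mRNA knockdown, and 1.24, 1.98 and 1.89 in scramble (exact permutation test, p = 0.0214, adjusted p = 0.0375). Eno2 over Eno1 averaged 0.179 ± 0.0429 in the circSlc45a4 knockdown and 0.0653 ± 0.0143 in the Slc45a4 mRNA knockdown, against 0.0649 ± 0.0217 in scramble (SD, n = 3 each; exact permutation test, p = 0.0321, adjusted p = 0.0409). Eno1 fell in the circSlc45a4 knockdown and Eno2 was not called. Pdk3 over Pdk2 was 1.04, 1.05 and 1.03 in the circSlc45a4 knockdown, 0.933, 0.560 and 0.556 in the Slc45a4 mRNA knockdown, and 0.510, 0.547 and 0.651 in scramble, with Slc45a4 mRNA knockdown replicate 1 near the circSlc45a4 knockdown (exact permutation test, p = 0.0179, adjusted p = 0.0375). Pdk1 over Pdk2 averaged 0.593 ± 0.0719 and 0.396 ± 0.0667 in the circSlc45a4 and Slc45a4 mRNA knockdowns, against 0.327 ± 0.0393 in scramble (SD, n = 3 each; exact permutation test, p = 0.00714, adjusted p = 0.025).

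In 2 further ratios scramble stood apart from both knockdowns, which overlapped each other. Mdh2 over Mdh1 was 0.888, 0.800 and 0.859 in the circSlc45a4 knockdown, 0.810, 1.02 and 1.01 in the Slc45a4 mRNA knockdown, and 1.24, 1.16 and 1.16 in scramble (exact permutation test, p = 0.0107, adjusted p = 0.03), and Idh3a over Idh3b averaged 0.384 ± 0.0231 and 0.397 ± 0.0309 in the circSlc45a4 and Slc45a4 mRNA knockdowns, against 0.540 ± 0.0447 in scramble (SD, n = 3 each; exact permutation test, p = 0.0214, adjusted p = 0.0375). Pfkfb3 over Pfkfb2 stood at the threshold and is not counted as passing (exact permutation test, p = 0.0429, adjusted p = 0.05). Hk2 over Hk1 and Slc16a1 over Slc16a3 did not pass (exact permutation test, adjusted p = 0.177 and 0.636). With groups of 3 these p-values move in coarse steps, and leaving out 1 library left 0 to 12 ratios past the threshold. It was 4, 3 and 3 without circSlc45a4 knockdown replicates 1, 2 and 3, 12, 0 and 4 without Slc45a4 mRNA knockdown replicates 1, 2 and 3, and 8, 3 and 11 without scramble replicates 1, 2 and 3. Further ratios stood at 0.05, within 1e-09, and are not counted, 6 without Slc45a4 mRNA knockdown replicate 2, 5 without its replicate 3, 5 without circSlc45a4 knockdown replicate 3, and 2 and 6 without scramble replicates 1 and 2.

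**Figure D4:**
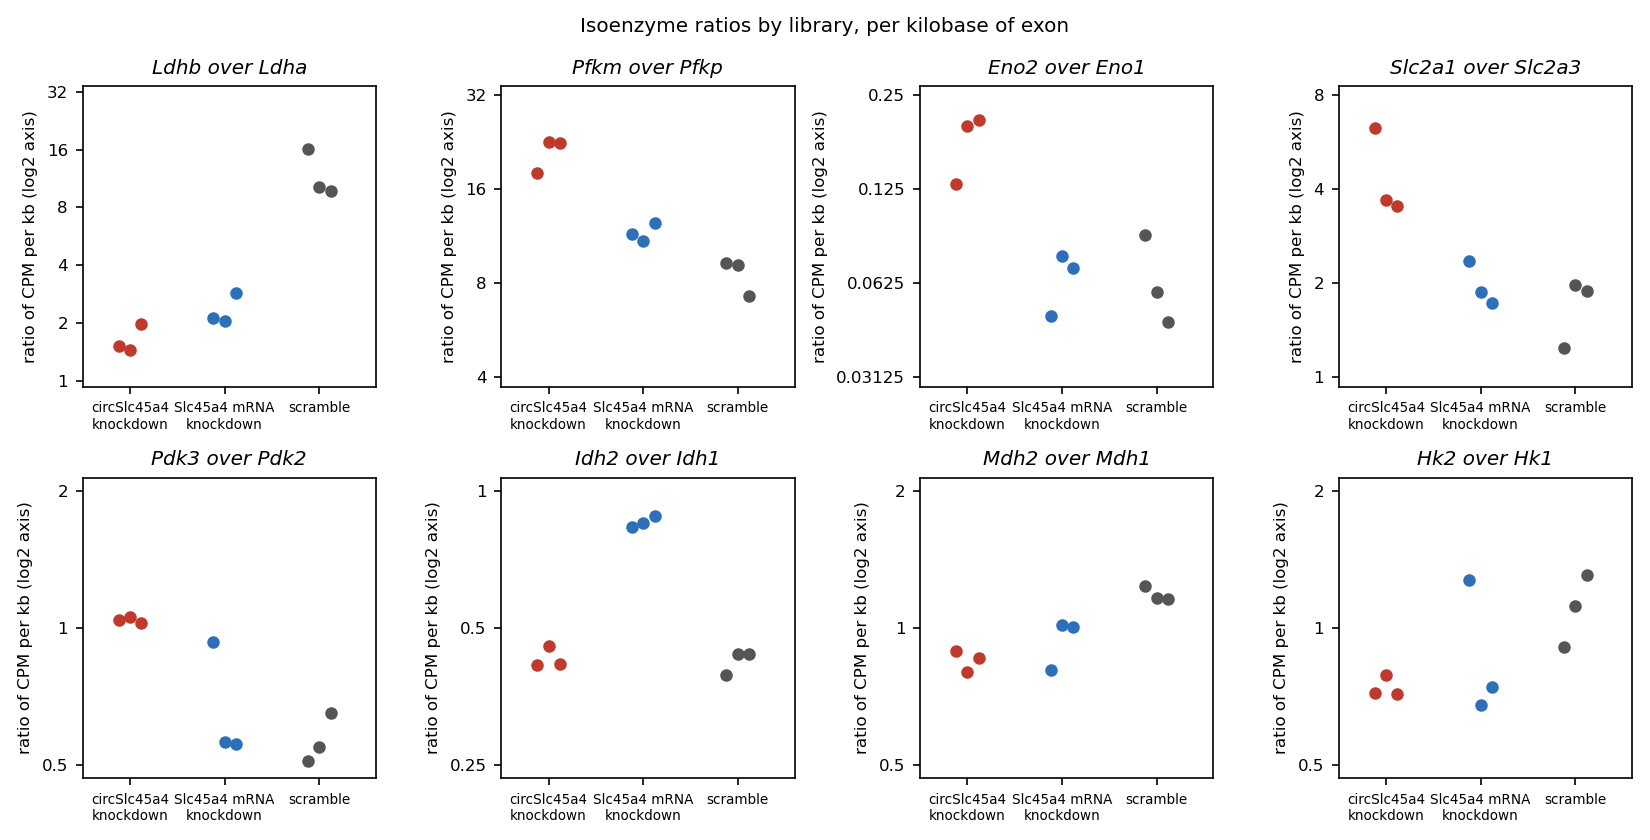
Ratio of 2 isoenzyme genes in each library, in CPM per kilobase of exon (log2 axes), for the circSlc45a4 knockdown, the Slc45a4 mRNA knockdown and scramble. Ldhb over Ldha lies between 1.44 and 2.87 in the knockdowns and between 9.69 and 16.2 in scramble, Idh2 over Idh1 is high in the Slc45a4 mRNA knockdown alone, and Hk2 over Hk1 lies below scramble in every circSlc45a4 knockdown library, while the Slc45a4 mRNA knockdown overlaps both.

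Other genes of these pathways were read from lists chosen for the pathway. The counts in all these lists stand beside 27.1% of all genes called in the circSlc45a4 knockdown and 18.0% in the Slc45a4 mRNA knockdown. No list was tested as a set. Among 12 further glycolysis genes that passed the filter, 3 rose and 4 fell in the circSlc45a4 knockdown and 1 rose and 2 fell in the Slc45a4 mRNA knockdown, with medians of -0.22 and -0.15. Aldoc, the aldolase of radial glia and astrocytes, had 151, 172 and 169 CPM in the circSlc45a4 knockdown, 74.4, 79.8 and 99.6 CPM in the Slc45a4 mRNA knockdown, and 51.9, 70.4 and 56.7 CPM in scramble. It was highest in the circSlc45a4 knockdown at 1.46 ± 0.13 (SE, adjusted p = 4.80e-06), and higher in the Slc45a4 mRNA knockdown at 0.50 ± 0.13 (SE, adjusted p = 0.0144), a call that ended without Slc45a4 mRNA knockdown replicate 3 or scramble replicate 1 or 3 (log2 fold change 0.37 to 0.47, adjusted p 0.052 to 0.0646). Tigar, a phosphatase that lowers fructose 2,6-bisphosphate, had 32.02, 32.4 and 34.9 CPM in the circSlc45a4 knockdown, 16.5, 19.03 and 16.6 CPM in the Slc45a4 mRNA knockdown, and 34.7, 38.1 and 35.5 CPM in scramble. It was lower in the Slc45a4 mRNA knockdown at -1.06 ± 0.10 (SE, adjusted p = 1.68e-05), beside -0.13 ± 0.10 (SE, adjusted p = 0.359) in the circSlc45a4 knockdown. Adpgk, an ADP-dependent glucokinase, fell in both knockdowns (-0.68 (adjusted p = 2.36e-04) and -0.56 (adjusted p = 0.00167)). Eno3, the muscle enolase, fell in the circSlc45a4 knockdown (-0.89 (adjusted p = 1.61e-04)). Of 9 further transport genes 1 was higher and 1 lower in the circSlc45a4 knockdown, Bsg, the chaperone of the lactate carriers (0.23 (adjusted p = 0.043)), and the glucose carrier Slc2a8 (-0.43 (adjusted p = 0.022)), and 0 of the 9 in the Slc45a4 mRNA knockdown by edgeR, limma-voom or DESeq2 (2 at an unadjusted p under 0.05 in each). The calls of Bsg and Slc2a8 both ended without circSlc45a4 knockdown replicate 2 or scramble replicate 2 or 3, that of Bsg also without replicate 1 of either group and that of Slc2a8 without circSlc45a4 knockdown replicate 3 (Bsg 0.18 to 0.24, adjusted p 0.0828 to 0.171; Slc2a8 -0.42 to -0.39, 0.0607 to 0.091). Of 9 further pyruvate entry genes 0 were called against scramble in either knockdown by the same 3 tools, with 1 and 2 at an unadjusted p under 0.05 by edgeR.

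Of 18 further TCA cycle genes 7 rose and 4 fell in the circSlc45a4 knockdown, and 2 rose and 1 fell in the Slc45a4 mRNA knockdown, with medians of 0.20 and 0.06. Sucla2, the ATP-forming partner of Suclg1, had 65.4, 70.1 and 62.6 CPM in the circSlc45a4 knockdown, 65.1, 47.2 and 49.5 CPM in the Slc45a4 mRNA knockdown, and 37.4, 35.5 and 33.1 CPM in scramble. It was higher in both knockdowns at 0.90 ± 0.12 (SE, adjusted p = 9.64e-05) and 0.61 ± 0.12 (SE, adjusted p = 0.00294). Acly, which cleaves exported citrate into acetyl-CoA, had 440.1, 434 and 424 CPM in the circSlc45a4 knockdown, 236, 298 and 289 CPM in the Slc45a4 mRNA knockdown, and 583, 617 and 587 CPM in scramble. It was lower in both at -0.46 ± 0.09 (SE, adjusted p = 0.00174) and -1.12 ± 0.09 (SE, adjusted p = 5.93e-06), and 0.66 ± 0.09 (SE, adjusted p = 1.80e-04) between them. Ogdhl, a paralog of Ogdh, fell in the circSlc45a4 knockdown (-0.74 (adjusted p = 1.47e-04)), beside -0.28 (adjusted p = 0.0675) in the Slc45a4 mRNA knockdown, where Ogdh itself fell. Me2, the mitochondrial malic enzyme, rose in the circSlc45a4 knockdown (0.58 (adjusted p = 0.0027)).

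In the pentose phosphate pathway, 0 of 7 genes rose and 2 fell in the circSlc45a4 knockdown, and 0 rose and 1 fell in the Slc45a4 mRNA knockdown. G6pdx, its X-linked first enzyme, had 34.6, 34.9 and 42.9 CPM in the circSlc45a4 knockdown, 64.6, 75.8 and 70.4 CPM in the Slc45a4 mRNA knockdown, and 81.8, 77.4 and 67.1 CPM in scramble. It was lowest in the circSlc45a4 knockdown at -1.01 ± 0.11 (SE, adjusted p = 2.49e-05). Of 7 genes of the malate-aspartate and glycerol phosphate shuttles and gluconeogenesis, 1 was higher and 3 lower in the circSlc45a4 knockdown and 3 higher and 1 lower in the Slc45a4 mRNA knockdown. The aspartate-glutamate carriers moved apart in both knockdowns. Slc25a13 rose (0.73 (adjusted p = 0.0033) and 0.94 (adjusted p = 0.00108)) and Slc25a12, the form of brain and muscle, fell (-0.49 (adjusted p = 9.60e-04) and -0.43 (adjusted p = 0.00416)). Gpd2, the mitochondrial glycerol phosphate dehydrogenase, fell in the circSlc45a4 knockdown (-0.59 (adjusted p = 0.00134)) and differed between the knockdowns (-0.80 (adjusted p = 1.71e-04)). With the Xist covariate, the calls against scramble of Aldoc, Tigar, Eno3, Ogdhl and G6pdx held, as did those of Adpgk and Sucla2 in the circSlc45a4 knockdown and of Acly and Slc25a13 in the Slc45a4 mRNA knockdown. The other calls of named genes in these lists ended under it, for the circSlc45a4 knockdown at -0.33 (adjusted p = 0.228) for Acly, 0.49 (adjusted p = 0.201) for Me2, -0.47 (adjusted p = 0.0976) for Slc25a12, 0.73 (adjusted p = 0.134) for Slc25a13, -0.54 (adjusted p = 0.118) for Gpd2, 0.08 (adjusted p = 0.786) for Bsg and -0.27 (adjusted p = 0.526) for Slc2a8. For the Slc45a4 mRNA knockdown they stood at -0.57 (adjusted p = 0.0647) for Adpgk, 0.45 (adjusted p = 0.158) for Sucla2 and -0.41 (adjusted p = 0.126) for Slc25a12.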

How the data were processed

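RNA was read from 9 libraries of sorted cortical cells, 3 per group, grouped by the labels. The deposited table holds raw read counts per gene, whole numbers that the authors did not normalize. Per the submitters' processing notes, the tools were STAR 2.4.2a, bcl2fastq 2.17.1.14 and DESeq2, with the mm10 genome, given without role or order. Annotation release and strand use in counting were not given in the sources used here, so reads of overlapping genes cannot be assigned with certainty. Of 53379 gene IDs, 53274 were given a symbol from GENCODE M21 (GRCm38) and 105 were not. Nothing in the labels says whether replicates came from separate litters, so p-values measure only the spread between these libraries. Replicates of a group differed by more than sampling noise (chi-square per degree of freedom 7.74 to 41.6).

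The main test was the edgeR quasi-likelihood test on all 9 libraries with 1 term per group (TMM factors, a minimum count of 10 in filterByExpr, 17760 genes, 6 residual degrees of freedom), with Benjamini-Hochberg adjustment over all genes and a call at an adjusted p under 0.05. CPM values, which scale counts to library size, use the TMM library sizes. Levels per kilobase divide by the union of exons. R 4.3.3, edgeR 4.0.16, limma 3.58.1 and DESeq2 1.42.0 were used. The common biological coefficient of variation was 13.9%. On simulated counts, with 100 genes changed at each size, the test recovered 42%, 38% and 44% of 1.5-fold changes and 66%, 69% and 66% of 2-fold changes in the circSlc45a4 knockdown against scramble, the Slc45a4 mRNA knockdown against scramble and the direct comparison, with 1, 5 and 5 false calls. Sequence shared between genes was counted in words of 50 bases. Isoenzyme ratios were tested by exact permutation over the 3 groups.

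The members and lists were chosen with earlier results of these data known. Every member is accounted for. Values per library are given for members called in at least 1 comparison and for both genes of each isoenzyme pair, and the other members by range. Of each further pathway list, at most 4 called genes with the smallest p are named. Alternatives were other normalization factors, limma-voom, DESeq2, other filters, the replicate number as a block, the Xist level as a covariate, fits of 2 groups, leaving out each library and, for levels and ratios, the longest transcript as length.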

Additional observations from a re-analysis of the deposited data

Results flagged for a closer look

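For 15 members the change against scramble differed between the knockdowns, by a direct test of the circSlc45a4 knockdown against the Slc45a4 mRNA knockdown (edgeR quasi-likelihood test, Benjamini-Hochberg over 17760 genes). They are 33.3% of the 45 rows, against 26.1% of all genes. Of the 15 calls, 10 held in every alternative, and those of Slc2a1, Ldhb, Mpc1, Cs and Sdhb ended in at least 1. Values are log2 differences, circSlc45a4 knockdown minus Slc45a4 mRNA knockdown. Among the transporters the difference was 0.61 for Slc2a1, -0.56 for Slc2a3 and -1.81 for Slc2a4. In glycolysis it was -0.83 for Pfkp, -1.75 for Eno1 and -1.79 for Eno1b, whose reads cannot be separated with certainty from those of Eno1, and for Ldhb it was -0.23. At pyruvate entry it was 0.55 for Pdk1, 0.62 for Pdk3 and 0.31 for Mpc1. In the TCA cycle it was 0.23 for Cs, -1.03 for Idh2, 1.24 for Ogdh, 0.29 for Sdhb and -0.55 for Fh1.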

How the results depend on the processing

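No member call changed direction in any of the 18 alternatives. Of the 26, 18 and 15 members called in the circSlc45a4 knockdown against scramble, the Slc45a4 mRNA knockdown against scramble and the direct comparison, 6, 6 and 10 held in all of them, and 16, 10 and 10 in all but the Xist covariate, which left 6, 6 and 15 calls. Leaving out 1 library gave 16 to 27, 11 to 17 and 11 to 16 calls, with 16 without scramble replicate 1 and 11 without scramble replicate 2 in the comparisons with scramble. The other settings gave 22 to 28, 14 to 21 and 13 to 18. Deviations of same-numbered libraries correlated at -0.14 to 0.12, and those of differently numbered libraries at -0.12 to 0.18. Between the knockdowns, however, same-numbered pairs stood at 0.081 to 0.12 and the others at -0.071 to -0.028. The labels do not say what the numbers share. With the replicate number as a block 23, 14 and 14 members were called. For the ratios, 11 of 14 passed, 0 with labels permuted within replicate numbers (a block whose 216 assignments allow no p below 0.0278), 0 to 12 without 1 library and 11 with the longest transcript as length. Upper-quartile factors gave 6 higher and 10 lower members in the direct comparison, and over all genes 42.1% of its calls were higher, against 52.8% with TMM. Over all genes the Xist covariate left 1199, 738 and 4288 calls, against 4815, 3200 and 4632 without it. The longest transcript as length moved 39 of the 45 scramble levels by over 1 SD. With 3 libraries a group, 1.5-fold changes were often missed on simulated counts, so a member without a call is not shown to be unchanged.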

Other observations

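Of 11 hypoxia-inducible genes outside the members that passed the filter, 2 stood above scramble and 1 below it in the circSlc45a4 knockdown, and 3 stood above it and 0 below it in the Slc45a4 mRNA knockdown (edgeR quasi-likelihood test, Benjamini-Hochberg over 17760 genes). Over all genes tested 27.1% and 18.0% were called, and the count in the circSlc45a4 knockdown lies near that share. Egln3, a prolyl hydroxylase that marks hypoxia-inducible factor for degradation, had 10.8, 9.10 and 8.76 CPM in the circSlc45a4 knockdown, 12.3, 10.2 and 12.8 CPM in the Slc45a4 mRNA knockdown, and 3.11, 3.92 and 4.17 CPM in scramble. All 6 knockdown libraries stood above scramble, with log2 fold changes of 1.35 and 1.65. Ndrg1 moved in opposite directions, at -0.97 in the circSlc45a4 knockdown and 0.53 in the Slc45a4 mRNA knockdown, and the second call ended when any 1 of 7 libraries was left out. Ero1l, an oxidase of the endoplasmic reticulum, was higher in the circSlc45a4 knockdown at 0.54. Kdm3a, a histone demethylase, was higher in the Slc45a4 mRNA knockdown at 0.37, a call that ended without Slc45a4 mRNA knockdown replicate 1 or any scramble replicate. With the Xist covariate 1 of the 11 was higher in each knockdown and 0 lower. Vegfa and Bnip3 were not called in either.

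The summed level of 10 microglia and macrophage markers was 6.66 to 12.2 CPM in the circSlc45a4 knockdown, 3.51 to 8.36 CPM in the Slc45a4 mRNA knockdown and 2.47 to 4.40 CPM in scramble. Of the 8 that passed the filter, 2 rose and 0 fell in the circSlc45a4 knockdown and 0 were called in the Slc45a4 mRNA knockdown. The sum of 7 interneuron markers was 1.72 to 2.77 CPM in the circSlc45a4 knockdown, 3.15 to 4.80 CPM in the Slc45a4 mRNA knockdown and 3.20 to 6.97 CPM in scramble, and of the 5 that passed the filter 0 rose and 3 fell in the circSlc45a4 knockdown (1 by limma-voom, 2 by DESeq2) and 0 were called in the Slc45a4 mRNA knockdown (1 lower by each). For 9 erythroid markers the sum was 9.003 to 26.1 CPM in the circSlc45a4 knockdown, 6.39 to 6.59 CPM in the Slc45a4 mRNA knockdown and 9.20 to 14.8 CPM in scramble. None of the 5 that passed the filter was called against scramble, where 1 and 2 stood at an unadjusted p under 0.05 (0 and 0 called by limma-voom and by DESeq2), and 3 rose and 0 fell in the direct comparison of the circSlc45a4 knockdown with the Slc45a4 mRNA knockdown. The sum of 6 pericyte markers was 3.89 to 5.90 CPM in the circSlc45a4 knockdown, 2.73 to 3.57 CPM in the Slc45a4 mRNA knockdown and 2.07 to 5.64 CPM in scramble. Of the 3 that passed the filter, 1 rose and 0 fell in the circSlc45a4 knockdown and 0 were called in the Slc45a4 mRNA knockdown. With the Xist covariate 0 microglia, interneuron or erythroid markers were called against scramble. Among 12 genes of G2 and M phase, 0 rose and 1 fell in the circSlc45a4 knockdown, and 2 rose and 0 fell in the Slc45a4 mRNA knockdown, against scramble. Limma-voom called 0 in the circSlc45a4 knockdown, and the Xist covariate left 0 in both. In the direct comparison of the knockdowns 0 rose and 9 fell in the circSlc45a4 knockdown. Beside the counts in these lists, 27.1% and 18.0% of all genes were called in the knockdowns against scramble and 26.1% in the direct comparison.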
